A study of Rattus norvegicus with 3 samples.

Results

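Claudins, occludin and the scaffold protein ZO-1 were followed through a comparison of rat induced pluripotent stem (iPS) cells with adult rat cells. The set held 9 genes (Cldn1, Cldn3, Cldn4, Cldn5, Cldn6, Cldn7, Cldn9, Ocln and Tjp1) out of 21768 genes tested, and it was read by 15 of the array's 41012 probes. Probes were chosen by the gene name in the array files, which found 8 of the 9 genes. The remaining gene, Ocln, was found through its transcript accession: the files name its 2 probes Tpmt, but the accession they carry is that of Ocln in the RefSeq gene table. Of the 9 genes, 5 were measured (Ocln, Cldn4, Tjp1, Cldn3 and Cldn9), meaning that a probe stood well above background in at least 1 channel on all 3 arrays, and 4 were not (Cldn1, Cldn5, Cldn6 and Cldn7).

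The cells of interest were untreated rat iPS cells of the line F65, kept on irradiated mouse embryonic fibroblasts in medium with fetal bovine serum and serum replacer. They were set against mix1, adult cells cultured from rat bone marrow and from the ear (primary fibroblasts). Each of 3 Agilent arrays took total RNA of 1 iPS F65 sample in Cy3 and of mix1 in Cy5. F65 is 1 line, its reprogramming factors and method are not given in the sources used here, and neither is the share of each cell type in mix1, the animals' strain or age, or whether feeder cells were removed before RNA was taken.

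Tight junctions seal the space between neighbouring epithelial or endothelial cells. Claudins are membrane proteins that form the strands of the seal and set which ions pass. Occludin is a further membrane protein of the strands, and ZO-1, encoded by Tjp1, is a cytoplasmic scaffold that ties claudins and occludin to actin. Pluripotent stem cells grow as epithelial colonies with such junctions, whereas fibroblasts and macrophages form no epithelial sheet, and Cldn6 is known as a surface marker of human pluripotent cells.

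The 3 arrays shared 1 slide and 1 scan. Between 57.1% and 61.2% of gene spots were well above background in iPS F65 and between 58.3% and 62.1% in mix1. With 3 arrays the precision is limited. Dye and cell type cannot be told apart, because the dyes were never swapped. Mix1 is 1 control sample, so the test is of the ratio against 0 and leaves out the spread of the adult cells. Whether the iPS samples were separate cultures is not given in the labels, so p-values cover the spread among these 3 samples alone, which may be technical. In such bulk RNA, fewer cells of a type and less RNA per cell cannot be told apart. All 4 measured pluripotent cell markers of a list of 8 (Nr0b1, Dnmt3b, Sox2 and Pou5f1) were higher in iPS F65, and no probe carried the names of the other 4 (Nanog, Zfp42, Utf1 and Tdgf1). Pou5f1 was not well above background in mix1 on any array (at least 4.53-fold higher), so it entered the test through iPS F65 alone. With the local backgrounds as given in place of the processed signals, its log2 ratio was 0.61 (limma adjusted p = 0.244). Of 7 early endoderm markers 2 were measured, and they went opposite ways. Afp was higher, with processed signals of 4950, 6333 and 5982 in iPS F65 against 151, 182 and 204 in mix1. Gata6 was lower, with 64.8, 87.4 and 90.9 in iPS F65 against 563, 638 and 640 in mix1. The 9 fibroblast markers were all lower, with summed processed signals of 5282 to 7361 in iPS F65 against 1496650 to 1913240 in mix1, and Thy1 and Postn were not well above background in iPS F65. Of 10 macrophage markers 9 were lower, with sums of 3354 to 4225 in iPS F65 against 236959 to 276691 in mix1, and Itgam (with a bound of 1.84-fold) and Adgre1 were not well above background in iPS F65.

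Ratios are log2 of the processed signal in iPS F65 over that in mix1, as means over 3 arrays. A gene was called when its adjusted p (limma, Benjamini-Hochberg over all genes tested) was under 0.05 and the change at least 2-fold. Across all 21768 genes 30.9% were called higher and 24.5% lower, together 55.4%, with a median log2 ratio of 0.25. Of the 5 measured members 1 was called higher (Ocln) and 2 lower (Cldn3 and Cldn9), a share near that background, so the counts themselves are no result about these genes. Their ratios were widely spread. In order, the log2 ratios were 3.75 for Ocln, 0.92 for Cldn4, 0.60 for Tjp1, -1.21 for Cldn3 and -6.01 for Cldn9. The per-array values of neighbouring genes in this order did not overlap, the closest being Cldn4 (0.71 to 1.07) and Tjp1 (0.54 to 0.66).

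**Figure D1:**
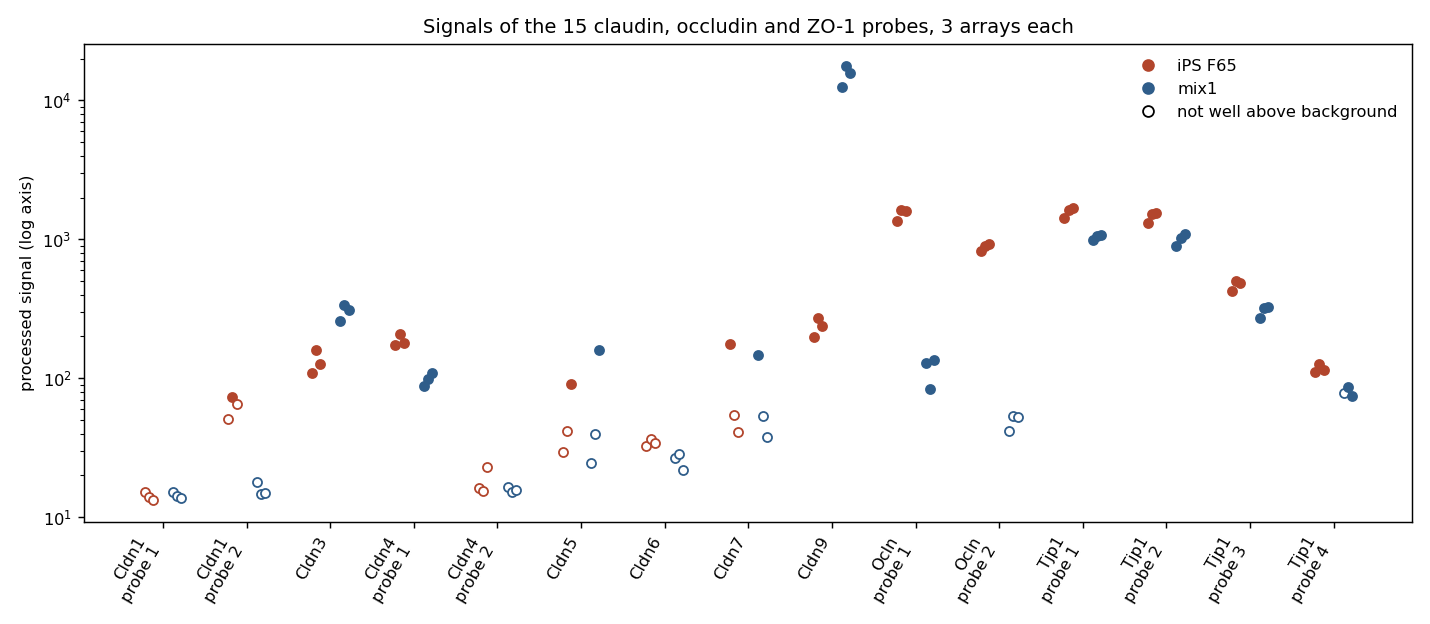
Processed signals (log axis) of the 15 member probes, with 1 point per array for iPS F65 (left of each tick) and mix1 (right). Open points were not well above background. Cldn9 signals lay between 197 and 272 in iPS F65, far under the 12426 to 17776 of mix1, whereas both Ocln probes ran the other way, and those of Cldn1, Cldn5, Cldn6 and Cldn7 were mostly open.

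Cldn9, a claudin known from the inner ear, had by far the largest difference of the set. Its processed signals were 197, 272 and 239 in the iPS F65 samples 1, 2 and 3, against 12426, 17776 and 15657 in mix1 on the same arrays. All 3 iPS signals were low and close together, and the groups were far apart. The mean log2 ratio was -6.01 ± 0.03 (SD, n = 3), a 64.6-fold lower signal in iPS F65 (limma, adjusted p = 5.37e-06), and 2.28% of all genes had a lower ratio. The fibroblast and macrophage markers fell with it, and their part in this difference was not tested. With the local backgrounds as given in place of the processed signals, the ratio was -4.26 (adjusted p = 0.0236).

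Cldn6, the direct neighbour of Cldn9 in the RefSeq annotation of chromosome 10 with 0 annotated genes between them, was not measured. Its signals were 32.7, 36.4 and 34.1 in iPS F65, against 26.5, 28.7 and 21.9 in mix1, and none of the 6 was well above background. No fold is given, and this probe does not show whether Cldn6 RNA was present. The probes of the pair are shown because these close relatives gave the strongest mix1 signal of the set and no signal above background. They are 60 bases long and lie 1618 bases apart in the array's rn3 coordinates, on chr10:12947844-12947903 (Cldn9, minus strand by the order of the file's coordinates) and chr10:12946166-12946225 (Cldn6, plus strand). Capitals mark the longest run the 2 probes share, which is 6 bases. No rn3 gene annotation was used here, so exon or UTR is not stated.
Cldn9 probe: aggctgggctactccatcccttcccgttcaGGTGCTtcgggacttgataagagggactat
Cldn6 probe: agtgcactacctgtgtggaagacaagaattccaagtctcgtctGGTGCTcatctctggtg

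Cldn3 and Cldn4, both receptors of the Clostridium perfringens enterotoxin and widely found in simple epithelia, had ratios of opposite sign. Only that of Cldn3 was called. Cldn3 signals were 109, 160 and 126 in iPS F65, against 259, 336 and 310 in mix1. Each iPS value was under each mix1 value. The log2 ratio was -1.21 ± 0.12 (SD, n = 3; 2.31-fold lower, limma adjusted p = 0.000224). This call was lost under every loess normalisation, at -0.999 with normexp and flagged backgrounds replaced, -0.97 without background subtraction and -0.44 with backgrounds as given (adjusted p = 0.248).

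Cldn4 signals were 174, 207 and 178 in iPS F65, against 88.6, 98.4 and 109 in mix1. The groups did not overlap, yet the log2 ratio of 0.92 ± 0.19 (SD, n = 3; limma adjusted p = 0.0016) stayed under the 2-fold limit and was not called. Without replicate 3 it was 1.02 and called, and with loess it was 0.43, 0.42 or 0.14, depending on the background correction. The last value, with backgrounds as given, had a limma adjusted p of 0.341. A second Cldn4 probe failed the background limit in both channels of all 3 arrays, with 16.3, 15.4 and 23.0 in iPS F65 against 16.6, 15.1 and 15.7 in mix1. The measured value of Cldn4 therefore rests on 1 of its 2 probes.

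The Cldn3 ratio lay below that of Cldn4 on every array. The difference, Cldn3 minus Cldn4, was -2.14 and -2.01 on arrays 2 and 3 and averaged -2.12 ± 0.11 (SD, n = 3), with p = 0.25 in an exact two-sided sign-flip permutation test, the smallest that 3 arrays allow. With loess it was between -1.43 and -0.58. The RefSeq annotation of chromosome 12 has 0 protein-coding genes between them. Their probes are shown as a pair with ratios of opposite sign. That of Cldn4 lies at chr12:22687607-22687666 (rn3, plus strand). That of Cldn3 lies on sequence of chromosome 12 that rn3 leaves unplaced (positions 771373 to 771432, minus strand). The longest run they share, in capitals, is 5 bases.
Cldn3 probe: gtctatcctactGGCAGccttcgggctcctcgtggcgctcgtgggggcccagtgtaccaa
Cldn4 probe: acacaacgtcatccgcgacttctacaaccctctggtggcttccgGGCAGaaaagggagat

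Cldn1, Cldn5 and Cldn7 were not measured, and each had an isolated array above background. For Cldn1, which is needed for the barrier of the epidermis, 1 probe gave 51.3, 73.3 and 65.9 in iPS F65 against 17.9, 14.7 and 14.9 in mix1, well above background only in iPS F65 sample 2. The iPS signals were higher on every array, but at this brightness a ratio cannot be given. The other Cldn1 probe gave 13.4 to 15.3 in iPS F65 against 13.8 to 15.2 in mix1, so the probes of this gene did not show the same pattern.

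Cldn5, the main claudin of endothelial cells, gave 29.5, 41.7 and 90.6 in iPS F65 against 24.4, 39.5 and 160 in mix1. It rose above background on the array of replicate 3 alone, in both channels. Of 8 endothelial markers 4 were measured, Tek higher, Tie1 and Eng lower and Kdr not called. Tek was not well above background in mix1 (at least 4.16-fold higher), nor was Tie1 in iPS F65, where its bound is 1.65-fold and its call was lost without the filter on dim probes (-0.50, adjusted p = 0.257). Meanwhile Pecam1, Cdh5, Vwf and Emcn were well above background in neither channel on all arrays. Cldn7, a claudin of epithelia, gave 177, 54.8 and 41.1 in iPS F65 against 147, 53.8 and 37.7 in mix1. It was above background on the array of replicate 1 alone, again in both channels, so for both genes the signal varied more between arrays than between the cells.

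Ocln was the highest member. Its brighter probe gave 1361, 1614 and 1604 in iPS F65, against 128, 83.2 and 135 in mix1. The lowest iPS signal was well over the highest mix1 signal. The log2 ratio was 3.75 ± 0.46 (SD, n = 3; 13.5-fold higher, limma adjusted p = 0.000371), and 1.93% of all genes had a higher ratio. Most of the spread came from mix1 on the array of replicate 2, which gave a ratio of 4.28 against 3.41 and 3.57 on the others.

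The second Ocln probe gave 822, 902 and 932 in iPS F65, against 41.7, 53.4 and 52.8 in mix1, where no array had it well above background. It was at least 13.2-fold higher in iPS F65 (limma adjusted p = 1.09e-05 over all probes tested). Such a bound sets the bright group against the lowest signal that still passed as above background, and without swapped dyes it is open to dye bias. Both probes thus showed the same direction. They lie on chromosome 2 at positions 31238858 to 31238917 and 31239675 to 31239734 of rn3 (minus strand). With loess the ratio of the brighter probe was 2.72 with flagged backgrounds replaced and 2.68 without background subtraction, both called, and 1.44 with backgrounds as given, where the call was lost (adjusted p = 0.0935).

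Tjp1, the scaffold, was read by 4 probes along chromosome 1, all measured and none called. The brightest gave 1431, 1621 and 1688 in iPS F65, against 987, 1056 and 1071 in mix1. The iPS signals were higher on each array, by a log2 ratio of 0.60 ± 0.06 (SD, n = 3; limma adjusted p = 0.000296), under the 2-fold limit. The other probes had ratios of 0.62, 0.54 and 0.53, so the 4 gave nearly the same value. With loess, which changes background handling and normalisation together, the ratio was 0.08, 0.08 or 0.13, and with processed signals centred on their median it was 0.62. The loess settings also moved the median of all genes, which was 0.25 with processed signals, to between -0.08 and 0.03. Its relative Tjp3, which encodes the scaffold ZO-3, had a ratio of 0.09 ± 0.17 and was not called either.

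**Figure D2:**
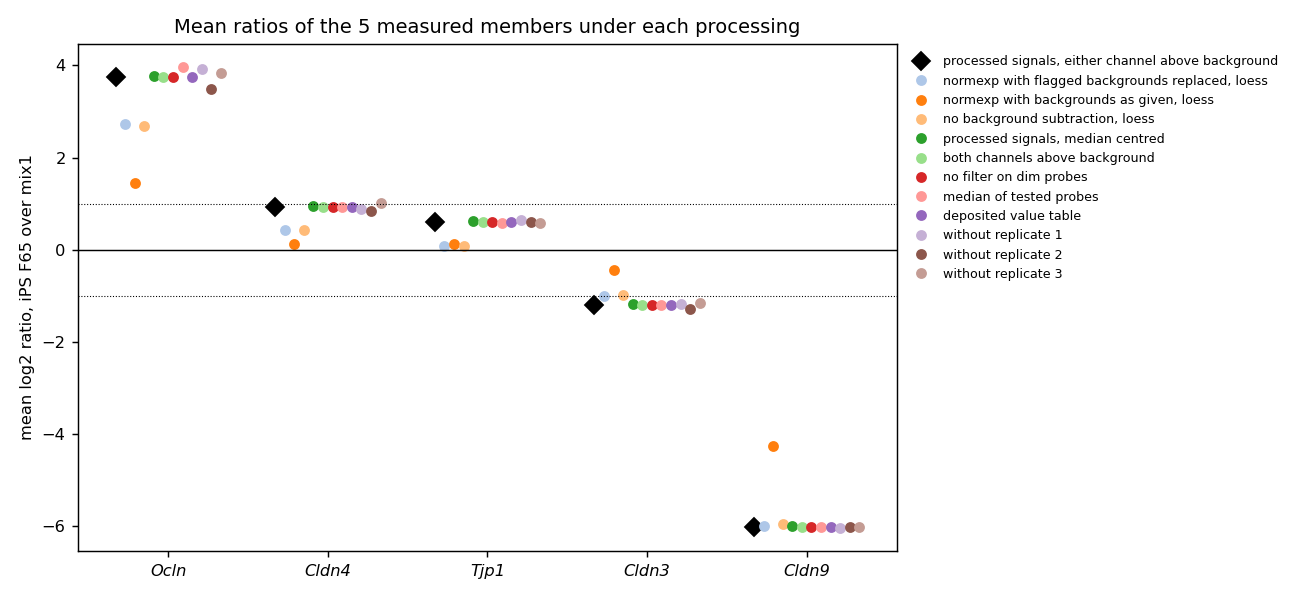
Mean log2 ratio (iPS F65 over mix1) of the 5 measured members under each processing, with the reported values as black diamonds and dotted lines at 2-fold. Ocln stayed above 0 and Cldn9 far below it in every setting, Cldn3 crossed its limit of -1 with loess, and Tjp1 came close to 0 with loess.

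By the distance of their 3 per-array ratios, over 9593 named genes above background in both channels, the genes most like Ocln were Mlf1 (mean log2 ratio 3.72, distance 0.46), Mylk3 (3.65, distance 0.52) and Kcns3 (3.82, distance 0.59). Those most like Cldn9 were Tns2 (-6.02, distance 0.09), Gask1b (-6.05, distance 0.09) and Spp1, which encodes osteopontin (-6.04, distance 0.10). With 3 arrays of 1 comparison, likeness means only a ratio of like size.

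Beyond the 9 genes, 16 further claudin names were listed, 14 had a probe, 4 were measured and none was called, beside 55.4% of all genes. Cldn12 had a log2 ratio of 0.86 ± 0.05, the claudin domain gene Cldnd1 0.65 ± 0.03, Cldn14 -0.07 ± 0.06 and Cldn23 -0.60 ± 0.06 (SD, n = 3 each). Cldn12, the highest, gave 406, 468 and 511 in iPS F65 against 233, 255 and 272 in mix1. The remaining 10 with a probe (among them Cldn2, Cldn8, Cldn10, Cldn11 and Cldn18) did not pass the filter on dim probes. Counting members, therefore, 7 genes named as claudins were measured, and only Cldn9 differed by more than 3-fold.

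Other membrane proteins of the junction went both ways. Of 12 listed 8 were measured, with 3 higher, 3 lower and a median log2 ratio of 0.09. Over all genes 30.9% were called higher and 24.5% lower. Marveld2, which encodes tricellulin, the occludin relative at contacts of 3 cells, gave 308, 359 and 365 in iPS F65 against 17.6, 16.0 and 16.5 in mix1, at least 5.13-fold higher. Lsr, the angulin that recruits tricellulin, was higher by a log2 ratio of 2.26 ± 0.19, and the adhesion receptor gene Cxadr by 1.76 ± 0.19. On the other side, the adhesion gene Clmp had a ratio of -6.52 ± 0.10 (-11.25 by its other probe), F11r, which encodes JAM-A, had -3.19 ± 0.34, and the endothelial adhesion gene Esam was at least 2.19-fold lower. F11r gave 102, 113 and 70.9 in iPS F65 against 829, 884 and 847 in mix1, with no overlap. So occludin and tricellulin were both higher, while JAM-A was lower. Marveld2 was not well above background in mix1 on any array, nor was Esam in iPS F65, so each entered the test through its brighter channel alone. Among the 6 genes of this list above background in both channels 2 were higher and 2 lower. Over all 17229 genes with this limit 4983 were higher and 3229 lower. Cxadr fell under 2-fold with loess (0.98), and with backgrounds as given only Clmp of the called genes kept its call.

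Of 16 cytoplasmic scaffolds listed 10 were measured, 2 higher and 2 lower (median 0.47), beside 30.9% and 24.5% of all genes. Afdn, the afadin that links nectins to actin, was higher by 1.94 ± 0.02, and Pals1 by 1.08 ± 0.03 at its brightest probe. All 3 tested Pals1 probes were called higher, up to a ratio of 2.94. Patj, the partner of Pals1, was lower with -1.07 ± 0.03, and Amotl2, an angiomotin-like protein, was at least 15.1-fold lower. Amotl2 was not well above background in iPS F65 on any array, so it entered the test through mix1 alone. Among the 9 scaffolds above background in both channels 2 were higher and 1 lower. Over all 17229 genes with this limit 4983 were higher and 3229 lower. The call at the brightest Pals1 probe was lost with loess (0.62), and with backgrounds as given only Afdn was still called.

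Of 11 polarity genes 9 were measured, 3 were higher and none lower (median 0.72), beside 30.9% and 24.5% of all genes. Crb3, the apical Crumbs protein of epithelia, was at least 1.72-fold higher, and Pard6g at least 2.11-fold. Pard6b was at least 2.01-fold higher. None of the 3 was well above background in mix1 on any array, and the bound for Crb3 is under 2-fold. All 3 thus entered the test through their iPS F65 signal alone. Among the 6 polarity genes above background in both channels none was called (median 0.50). Over all 17229 genes with this limit 4983 were higher and 3229 lower. With loess Pard6b (0.86) and Pard6g (0.61) fell under 2-fold, and with backgrounds as given none was called.

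Of 7 listed surface partners of claudins 6 were measured, 3 higher and none lower (median 2.02, or 1.28 with dim genes at their bounds). The shares of all genes were 30.9% and 24.5%. Epcam, an adhesion protein that binds claudins, gave 1821, 1938 and 1936 in iPS F65 against 27.2, 29.0 and 40.2 in mix1 and was at least 28.3-fold higher. Spint1, an inhibitor of the protease matriptase, was higher by 3.51 ± 0.18, and Cdh1, which encodes E-cadherin, by at least 3.43-fold. St14, which encodes matriptase itself, had a ratio of -0.97 ± 0.01 and was not called, and Spint2 had -0.26 ± 0.08. Epcam and Cdh1 were not well above background in mix1 on any array, so they entered the test through their iPS F65 signal alone. Among the 3 genes of this list above background in both channels, only Spint1 was called. Over all 17229 genes with this limit 4983 were higher and 3229 lower. With backgrounds as given Epcam, Spint1 and Cdh1 lost their calls, at 1.95, 1.28 and 0.55.

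Together, these 62 other tight junction names gave 37 measured genes, of which 11 were higher, 5 lower and 21 neither, with a median of 0.65 beside 0.25 for all genes. That is 29.7% higher and 13.5% lower, against 30.9% and 24.5% of all genes. With loess 7 were higher and 5 lower, both with flagged backgrounds replaced and without background subtraction. Over all 21768 genes these 2 settings called 3976 and 3972 higher and 5684 and 5652 lower. With backgrounds as given 1 was higher and 1 lower, beside 2353 and 2081 of all genes. Among the 28 above background in both channels 5 were higher and 3 lower, beside 4983 and 3229 of the 17229 genes with this limit. Keratins of epithelia were mixed beside them: Krt18 and Krt19 were called higher, Krt7 and Krt8 lower, and Krt14 was not called. Krt19 was not well above background in mix1 and its bound is 1.30-fold, under the 2-fold limit, and Krt7, not well above background in iPS F65, was at least 12.7-fold lower.

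**Figure D3:**
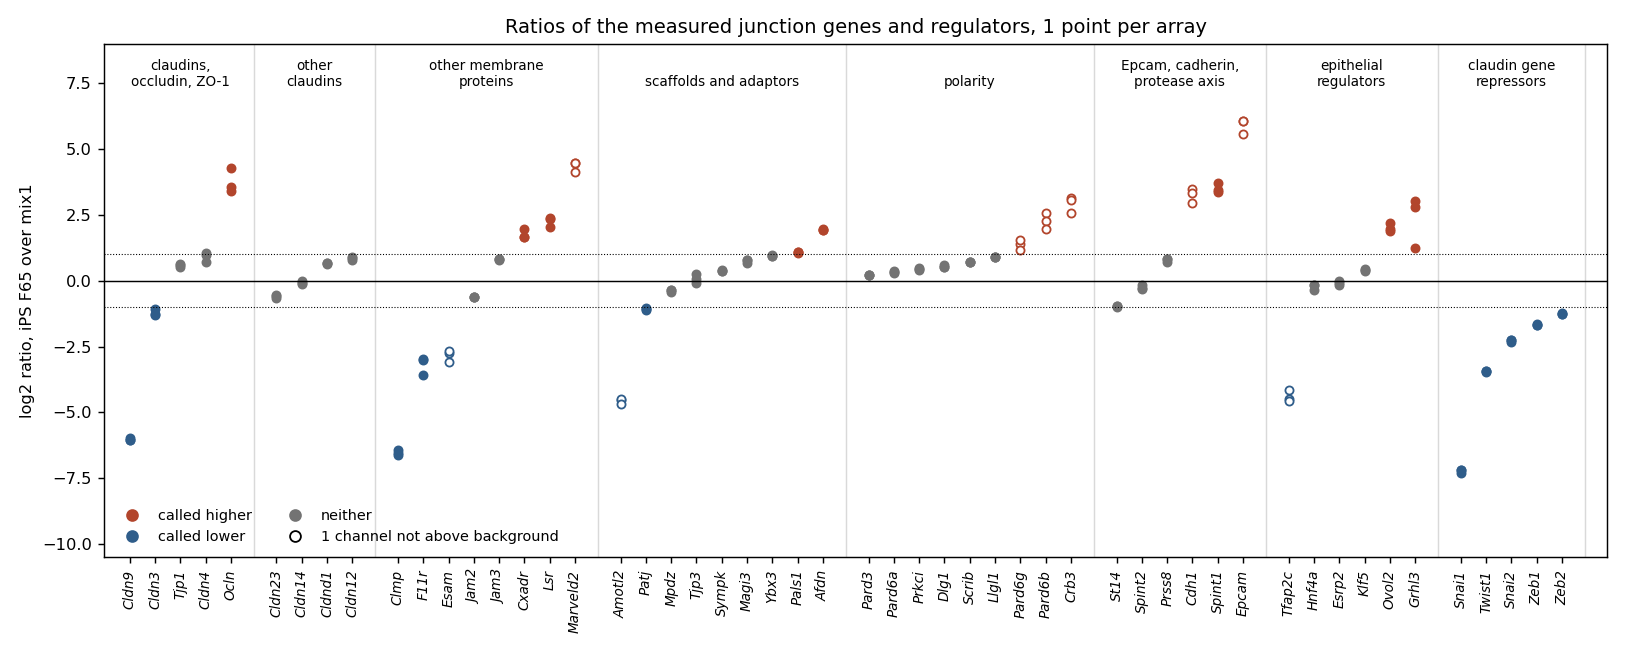
Log2 ratio (iPS F65 over mix1) of the measured junction genes and regulators, except 1 scaffold gene that is not shown, with 1 point per array, grouped by role and ordered by ratio within a group. Dotted lines mark 2-fold, and open points have 1 channel not above background on any array. Ocln, Marveld2, Crb3 and Epcam stand high in their groups, Cldn9, Clmp and Amotl2 low, and the 5 repressors all lie under -1.

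Transcription factors known to repress claudin, occludin and E-cadherin genes were all lower in iPS F65, 5 of 5 measured (median log2 ratio -2.29). Across all genes 24.5% were called lower. Snai1 gave 190, 257 and 260 in iPS F65 against 30287, 37252 and 37449 in mix1, a log2 ratio of -7.22 ± 0.08 (149-fold lower, limma adjusted p = 5.65e-06). Its second probe had -3.64, so the size, but not the direction, depended on the probe. The ratio was -3.44 ± 0.02 for Twist1, -2.29 ± 0.05 for Snai2, -1.67 ± 0.03 for Zeb1 and -1.26 ± 0.01 for Zeb2. These factors are also active in fibroblasts, whose markers fell on the same arrays, and that part was not tested. With backgrounds as given Snai2 (-0.73) and Zeb2 (adjusted p = 0.0593) lost their calls.

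Factors of epithelial gene expression were measured in 6 of 12 cases, 2 higher and 1 lower (median 0.17), beside 30.9% and 24.5% of all genes. Ovol2, a repressor of mesenchymal genes, was higher by 2.02 ± 0.16. Grhl3, a grainyhead factor of surface epithelia, was higher by 2.36 ± 0.97 (limma adjusted p = 0.0121), a call that was lost without replicate 1 (0.0522) and without replicate 3 (0.0676). Tfap2c was at least 4.66-fold lower. It was not well above background in iPS F65 on any array, so it entered the test through mix1 alone. Among the 4 factors above background in both channels 1 was higher and none lower. Over all 17229 genes with this limit 4983 were higher and 3229 lower. Grhl1, Grhl2, Ovol1, Elf3 and Cdx2 did not pass the filter on dim probes. With backgrounds as given none of the 6 was called.

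The repressors bind E-boxes, so the promoters of the members were searched for the E-box CAGGTG on both strands (CACCTG on the other). RefSeq's promoter table (GRCr8, 250 bases before to 50 after the start) held 7 of the 9 members, not Cldn4 and Cldn9. For Cldn6, Ocln and Tjp1 the start used lies inside the annotated gene. The bases before the upstream end of these 3 genes were not searched. The letters occurred in 4 of the 7, with 5 matches for Cldn7, 3 for Cldn6, 2 for Ocln and 1 for Cldn3, and in none of Cldn1, Cldn5 and Tjp1. At least 1 match was present in 18.8% of all 33469 promoters. The 250 bases before the start are shown for the 2 called members with a match, which ran in opposite directions, with the matches in capitals: Ocln at chr2:33441199-33441448 (minus strand, matches starting 137 and 68 bases before the start) and Cldn3 at chr12:27346548-27346797 (minus strand, 248 bases before). A match is a description of the letters and not a binding site.
Ocln promoter: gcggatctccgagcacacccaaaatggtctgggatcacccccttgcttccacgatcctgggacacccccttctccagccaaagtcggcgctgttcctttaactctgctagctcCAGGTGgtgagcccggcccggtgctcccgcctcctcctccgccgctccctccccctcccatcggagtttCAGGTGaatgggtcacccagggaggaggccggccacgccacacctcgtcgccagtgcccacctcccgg
Cldn3 promoter: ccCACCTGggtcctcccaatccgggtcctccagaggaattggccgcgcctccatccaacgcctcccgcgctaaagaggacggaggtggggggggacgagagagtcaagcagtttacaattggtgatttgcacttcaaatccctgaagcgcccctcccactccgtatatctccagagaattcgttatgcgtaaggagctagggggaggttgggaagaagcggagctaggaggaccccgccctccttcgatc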

How the data were processed

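Spots were quantified by the authors in Agilent Feature Extraction 9.5.3.1, per the file headers, which also name rn3 as the design's build. The processed intensity values used for the reported ratios were background-subtracted and dye-normalised within each array by that software, per the file headers. Mean spot and background intensity values, deposited without normalisation, served the loess alternatives (normexp offset 50). The deposited log2 value table matched log2 of green over red processed signals to a median difference of 2.56e-07 or less per array. The largest difference of a probe was 0.47, 0.60 and 0.31 on the arrays of replicates 1, 2 and 3.

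Control spots and 204 to 213 outlier-flagged spots per array were left out, spots of a probe were averaged, and 0 gene spots were saturated. Each gene was represented by its brightest tested probe, and names came from the RefSeq gene table of GRCr8 (10811 probes through the accession, 1215 through a gene number, 5557 through the symbol, 3716 through 1 former name), while 19713 probes kept the file's name. The test of a zero mean ratio used lmFit and eBayes of limma 3.58.1 under R 4.3.3. It was run on simulated ratios with 200 changed genes and random noise, which held no dye or background effects and cannot speak to those. Bounds used levels after Aquantile normalisation. Named were all members and other measured claudins, and the 3 genes nearest to the highest and lowest member. The other junction and regulator lists gave the 3 called genes with the highest and the 3 with the lowest ratio (which takes in all 5 repressors). Of the fibroblast and macrophage markers, only those not well above background in iPS F65 on any array were named. The uncalled Tjp3, St14, Spint2, Kdr and Krt14 were chosen after their values were seen. The values of 1 listed scaffold gene are not reported here, though it is part of the counts. Scan and slide were the same for all arrays, so no batch could be tested. The members, lists and alternatives were chosen with earlier results of these data known.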

Additional observations from a re-analysis of the deposited data

How the results depend on the processing

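Across 11 alternatives no ratio of a measured member changed sign. Cldn3 lost its call with normexp and flagged backgrounds replaced (-0.999), with backgrounds as given (-0.44) and without background subtraction (-0.97), Ocln with backgrounds as given (1.44), and Cldn4 gained one without replicate 3; the causes were not tested. Leaving out 1 array gave -6.03 to -6.00 for Cldn9, 3.49 to 3.93 for Ocln, -1.27 to -1.16 for Cldn3, 0.84 to 1.02 for Cldn4 and 0.58 to 0.64 for Tjp1. The difference of Cldn3 and Cldn4 was -1.43, -0.58 and -1.39 in the 3 loess settings in that order. Over all genes they called 3976, 2353 and 3972 higher and 5684, 2081 and 5652 lower, against 6724 higher and 5330 lower as reported. Of these calls 41.2%, 53.1% and 41.3% were higher, against 55.8%. With both channels above background 4983 of 17229 genes were higher and 3229 lower. Members called lower were 1 in each loess setting, and members called higher were 0 with backgrounds as given, 2 without a filter and 1 to 2 when an array was left out. Of other tight junction genes 7, 1 and 7 were higher with loess and 1 lower with backgrounds as given, and 5 and 3 with both channels above background. Of regulators, backgrounds as given left 0 higher and 3 lower, both channels above background 1 higher, and leaving out an array 1 to 2 higher. Of 58 listed genes called, 33 lost their call with backgrounds as given and 5 in each other loess setting, and none turned. Cldn9 minus Cldn6 was not computed, since Cldn6 was not measured. Each ratio pairs an iPS F65 sample with mix1 within its array. Pairing with separate adult samples was not possible, because all samples are of 1 group, each against the same mix1. Signal over background limits Cldn1, Cldn5, Cldn6 and Cldn7, for which the size of a difference could not be measured on these arrays.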
